A study of Homo sapiens with 12 samples.

Results

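The genes described here are the cytosolic and mitochondrial heat shock chaperones and their J-domain partners, measured by bulk RNA sequencing in A2058, an established human melanoma cell line. They were taken by symbol from the table of gene counts: HSP90A, HSPA, HSPB, HSPD, HSPE and HSPH genes and DNAJA, DNAJB and DNAJC genes, each family name followed by a number or letter. The symbol pattern matched 83 rows. Left out were 4 genes of the endoplasmic reticulum (HSPA5, DNAJB9, DNAJB11 and DNAJC3), 5 antisense transcripts and 2 rows marked as pseudogenes by their symbol. This left 72 members among 26364 genes. Of these, 56 had enough counts to be tested and 16 did not. The untested members include DNAJB3 and HSPA7, listed by RefSeq as transcribed pseudogenes, and HSPB2-C11orf52, listed as a long noncoding RNA. The symbols do not define a compartment strictly: HSPA13, DNAJC1 and DNAJC10 are known proteins of the endoplasmic reticulum, DNAJB12 and DNAJB14 sit in its membrane, and HSPB11 is a subunit of the intraflagellar transport machinery.

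The study moved the level of MITF, the transcription factor that directs melanocyte differentiation, in both directions. All 4 groups were A2058 cells with 3 libraries each, which the labels call biological replicates. An LVX empty vector group and an LVX MITF vector group were transduced with lentivirus and selected with puromycin. An MITF siRNA group and a siRNA scrambled group were transfected by lipofection for 48 hours, with no vector named for them in the labels. The 2 control groups therefore differ in transduction, selection and transfection together, and the effects of these steps on a gene cannot be told apart. The sources used here do not name the promoter that drives MITF in the vector, the number of clones or how the replicates were cultured, so the tests reflect the spread among these libraries, which may be technical.

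Heat shock chaperones help proteins fold and keep damaged proteins from aggregating. HSP70 proteins bind short hydrophobic stretches of a client in cycles of ATP hydrolysis that J-domain (DNAJ) proteins start and HSP110 proteins reset, HSP90 acts later on kinases, receptors and other near-native clients, small heat shock proteins hold unfolded chains without ATP, and HSP60 with its lid HSP10 folds proteins inside mitochondria. Under stress, the heat shock factors, HSF1 above all, bind heat shock elements made of inverted GAA units in chaperone promoters, and many tumour cells are known for high chaperone levels without heat. MITF binds E-boxes of the form CACGTG or CATGTG.

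Promoter sequences are shown first for 6 members that the results below turn on. They come from RefSeq (GRCh38.p14) and span 250 bases before to 50 bases after the annotated start, read 5′ to 3′ on the gene's strand; the counts were made on hg19, so these coordinates belong to the RefSeq build only. HSPA8 and DNAJA1 stand for the abundant HSP70 and its J-domain partner that were lower with the MITF vector, and capitals mark the 3-unit heat shock element, read as GAA, TTC and GAA with 2 bases of any kind (NN) between units, in either orientation.
HSPA8 (chr11:123062087-123062386, minus strand): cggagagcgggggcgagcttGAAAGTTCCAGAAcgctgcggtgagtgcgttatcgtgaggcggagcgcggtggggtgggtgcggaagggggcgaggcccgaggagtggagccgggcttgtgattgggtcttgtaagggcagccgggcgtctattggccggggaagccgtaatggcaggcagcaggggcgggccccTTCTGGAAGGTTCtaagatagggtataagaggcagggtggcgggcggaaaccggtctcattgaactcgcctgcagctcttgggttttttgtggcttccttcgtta
DNAJA1 (chr9:33025023-33025322, plus strand): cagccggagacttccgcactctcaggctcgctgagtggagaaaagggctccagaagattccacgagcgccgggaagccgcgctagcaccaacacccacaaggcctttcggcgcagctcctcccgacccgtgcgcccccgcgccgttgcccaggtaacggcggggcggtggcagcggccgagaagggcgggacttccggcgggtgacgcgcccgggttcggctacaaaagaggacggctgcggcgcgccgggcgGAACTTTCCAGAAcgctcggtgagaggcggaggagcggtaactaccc
HSPA1A and HSPA1B are the near-identical stress-inducible HSP70 genes, which were also lower with the MITF vector, and capitals mark the inverted pair GAANNTTC.
HSPA1A (chr6:31815293-31815592, plus strand): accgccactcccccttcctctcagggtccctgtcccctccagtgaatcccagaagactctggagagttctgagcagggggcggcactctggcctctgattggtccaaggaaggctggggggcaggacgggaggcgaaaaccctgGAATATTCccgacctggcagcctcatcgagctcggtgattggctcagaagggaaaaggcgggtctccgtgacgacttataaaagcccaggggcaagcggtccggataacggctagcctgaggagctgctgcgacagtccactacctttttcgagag
HSPA1B (chr6:31827488-31827787, plus strand): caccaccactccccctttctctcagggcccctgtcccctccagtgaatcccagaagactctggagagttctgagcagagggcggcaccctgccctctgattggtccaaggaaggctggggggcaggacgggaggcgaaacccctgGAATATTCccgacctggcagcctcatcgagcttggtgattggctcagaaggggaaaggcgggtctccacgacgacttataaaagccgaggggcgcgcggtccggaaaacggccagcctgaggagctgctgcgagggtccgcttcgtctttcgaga
DNAJC12 and DNAJC13 were higher with the MITF vector and lower with MITF siRNA, and capitals mark CACGTG and CATGTG in either orientation.
DNAJC12 (chr10:67838139-67838438, minus strand): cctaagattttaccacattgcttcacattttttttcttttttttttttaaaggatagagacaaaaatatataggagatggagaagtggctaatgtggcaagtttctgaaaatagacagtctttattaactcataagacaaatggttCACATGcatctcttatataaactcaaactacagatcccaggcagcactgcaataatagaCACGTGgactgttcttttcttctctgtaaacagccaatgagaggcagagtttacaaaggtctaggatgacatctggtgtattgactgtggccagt
DNAJC13 (chr3:132417252-132417551, plus strand): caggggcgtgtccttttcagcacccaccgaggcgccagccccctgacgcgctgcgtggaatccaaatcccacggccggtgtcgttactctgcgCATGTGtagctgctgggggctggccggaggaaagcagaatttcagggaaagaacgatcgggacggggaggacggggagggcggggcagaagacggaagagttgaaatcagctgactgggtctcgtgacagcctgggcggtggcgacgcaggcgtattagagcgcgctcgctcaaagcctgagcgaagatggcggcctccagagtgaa
Searched on both strands, the 3-unit element was present in 7 of 61 members (11.5%) and 0.608% of the 27305 genes with an entry. The members that held it were DNAJA1, DNAJB6, HSP90AA1, HSP90AB1, HSPA6, HSPA8 and HSPD1. The shorter pairs, which the 3-unit element contains, were more common: GAANNTTC was present in 17 of 61 members (27.9%) and 8.21% of the 27305 genes with an entry, and TTCNNGAA in 13 of 61 members (21.3%) and 9.46% of the 27305 genes with an entry. The E-boxes were near their general level, with CACGTG in 7 of 61 members (11.5%) and 8.77% of the 27305 genes with an entry and CATGTG in 8 of 61 members (13.1%) and 13.4% of the 27305 genes with an entry. The 2 E-box members printed were chosen for their calls, and other holders moved the opposite way: of 6 tested members with CACGTG, DNAJC12 rose and HSPD1 and HSPE1 fell with the MITF vector, and of 6 with CATGTG, DNAJC12 and DNAJC13 rose and DNAJB1, DNAJC9 and HSPA4L fell. With MITF siRNA, DNAJC12, DNAJC8, DNAJC13 and DNAJC9 fell and HSPD1 rose among them. A match says only that the letters are in the window.

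MITF RNA was at 299, 311 and 301 CPM (counts scaled to a common library size, with TMM factors) in the empty vector libraries and at 658, 679 and 633 CPM in the MITF vector libraries. It was at 504, 465 and 431 CPM with scrambled siRNA and at 343, 322 and 365 CPM with MITF siRNA, so that both manipulations moved it in the labelled direction and the 2 controls differed from each other. Total counts ran from 7427637 to 23938392 per library. The summed melanocytic markers SOX10, PMEL, MLANA, S100B, EDNRB, TYR and DCT lay at 3861 to 4083 CPM in the empty vector group, 7436 to 8066 in the MITF vector group, 7257 to 8163 in the scrambled group and 6001 to 6636 in the MITF siRNA group, whereas 7 fibroblast, 6 epithelial and 6 leukocyte markers summed to at most 34.5, 28.6 and 26.7 CPM in any library. The nuclear RNA MALAT1 took 1.22 to 1.27% of counts in the MITF vector libraries and 0.273 to 0.758% in all others; the part of this shift in the chaperone results was not tested. In bulk RNA, fewer cells that express a gene and less RNA per cell cannot be told apart.

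The 72 members together took 1.47 to 1.51% of all counts in the empty vector libraries. Their share was 1.25 to 1.34% with the MITF vector, 1.26 to 1.28% with scrambled siRNA and 1.24 to 1.29% with MITF siRNA. The empty vector libraries thus lay above all 9 others, which overlapped one another. Per kilobase of annotated exon, a scale on which different genes can be compared, HSPA8 led in the empty vector group at 1528 ± 21.7 CPM per kb (SD, n = 3). HSP90AA1 and HSP90AB1 followed at 715 ± 83.2 and 664 ± 4.63 CPM per kb, which overlapped, and then HSPD1 at 428 ± 10.3, DNAJA1 at 183 ± 8.66 and HSPA9 at 135 ± 1.80 CPM per kb. In the MITF vector group HSPA9, at 137 ± 2.44 CPM per kb, lay above DNAJA1, at 128 ± 3.98 CPM per kb, the reverse of their order in the empty vector group.

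The first comparison asks how the chaperones differed in cells that carried extra MITF. With the MITF vector, most of the changed chaperones were lower: 27 of the 56 tested members fell and 7 rose relative to the empty vector, against 30.8% of all tested genes called lower and 28.6% called higher (edgeR, adjusted p below 0.05). The falls took in both HSP90 genes, HSPA8, HSPA1A, HSPA1B, HSPH1, HSPD1 and the J-domain genes DNAJA1 and DNAJB4. The rises were HSPA12A, HSPA6, DNAJC12, DNAJC13, DNAJC18, DNAJC22 and DNAJC27. The median log2 difference over the tested members was -0.12, beside 0.0037 over all tested genes. A list of 14 members was counted as heat-inducible from general knowledge: HSP90AA1, HSPA1A, HSPA1B, HSPA6, HSPA8, HSPA4, HSPH1, HSPD1, HSPE1, HSPB1, DNAJA1, DNAJB1, DNAJB4 and DNAJB6. It holds genes with a high level without heat, and HSPA8 is better known as constitutive. Of these 14, 11 fell, HSPA6 rose, and HSPA4 and HSPB1 were not called, with a median of -0.24. Of the 7 tested members with a 3-unit heat shock element in the promoter window, 6 fell and HSPA6 rose. The same 6 were lower and HSPA6 higher in scrambled siRNA than in empty vector libraries, beside 19.6% and 18.9% of all tested genes. With MITF siRNA, set against scrambled siRNA, 3 of the 7 rose and 4 were not called. Of all tested genes, 18.7% were called higher and 16.7% lower there. Without any 1 library, with other scaling, with no filter on low counts, with DESeq2, with the compared groups alone or with a replicate block, 19 of the 27 falls and 5 of the 7 rises held.

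Knockdown with MITF siRNA, set against scrambled siRNA, asks for the reverse. The calls there were split: 15 of 56 members rose and 11 fell, beside 18.7% and 16.7% of all tested genes, and the median difference was 0.032 on the log2 scale, beside -0.0026 over all genes. HSPA13, DNAJC10, DNAJC1, DNAJC6, DNAJB4, DNAJC5 and HSPD1 rose and DNAJC13, DNAJC8, DNAJC9, HSPA12A and HSPB1 fell under every setting tried. The rises numbered 9 without MITF siRNA replicate 2. Of the heat-inducible members, DNAJA1, DNAJB4, DNAJB6 and HSPD1 rose, HSPA1A, HSPA1B and HSPB1 fell, and 7 were not called, among them HSPA8 and HSP90AA1.

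The 2 controls differed from each other almost as widely. In scrambled siRNA libraries 22 members were lower and 6 higher than in empty vector libraries, beside 19.6% and 18.9% of all tested genes, with a median log2 difference of -0.10. The rises numbered 3 with DESeq2 and 3 without empty vector replicate 1. Of the heat-inducible members 8 fell and HSPA6 rose. This comparison shares the empty vector libraries with the first and the scrambled siRNA libraries with the second, so its values are given only side by side with theirs. The test of the difference between the 2 MITF responses (vector minus empty vector, less siRNA minus scrambled) called 28 members lower and 8 higher, beside 29.8% and 27.1% of all tested genes.

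**Figure D1:**
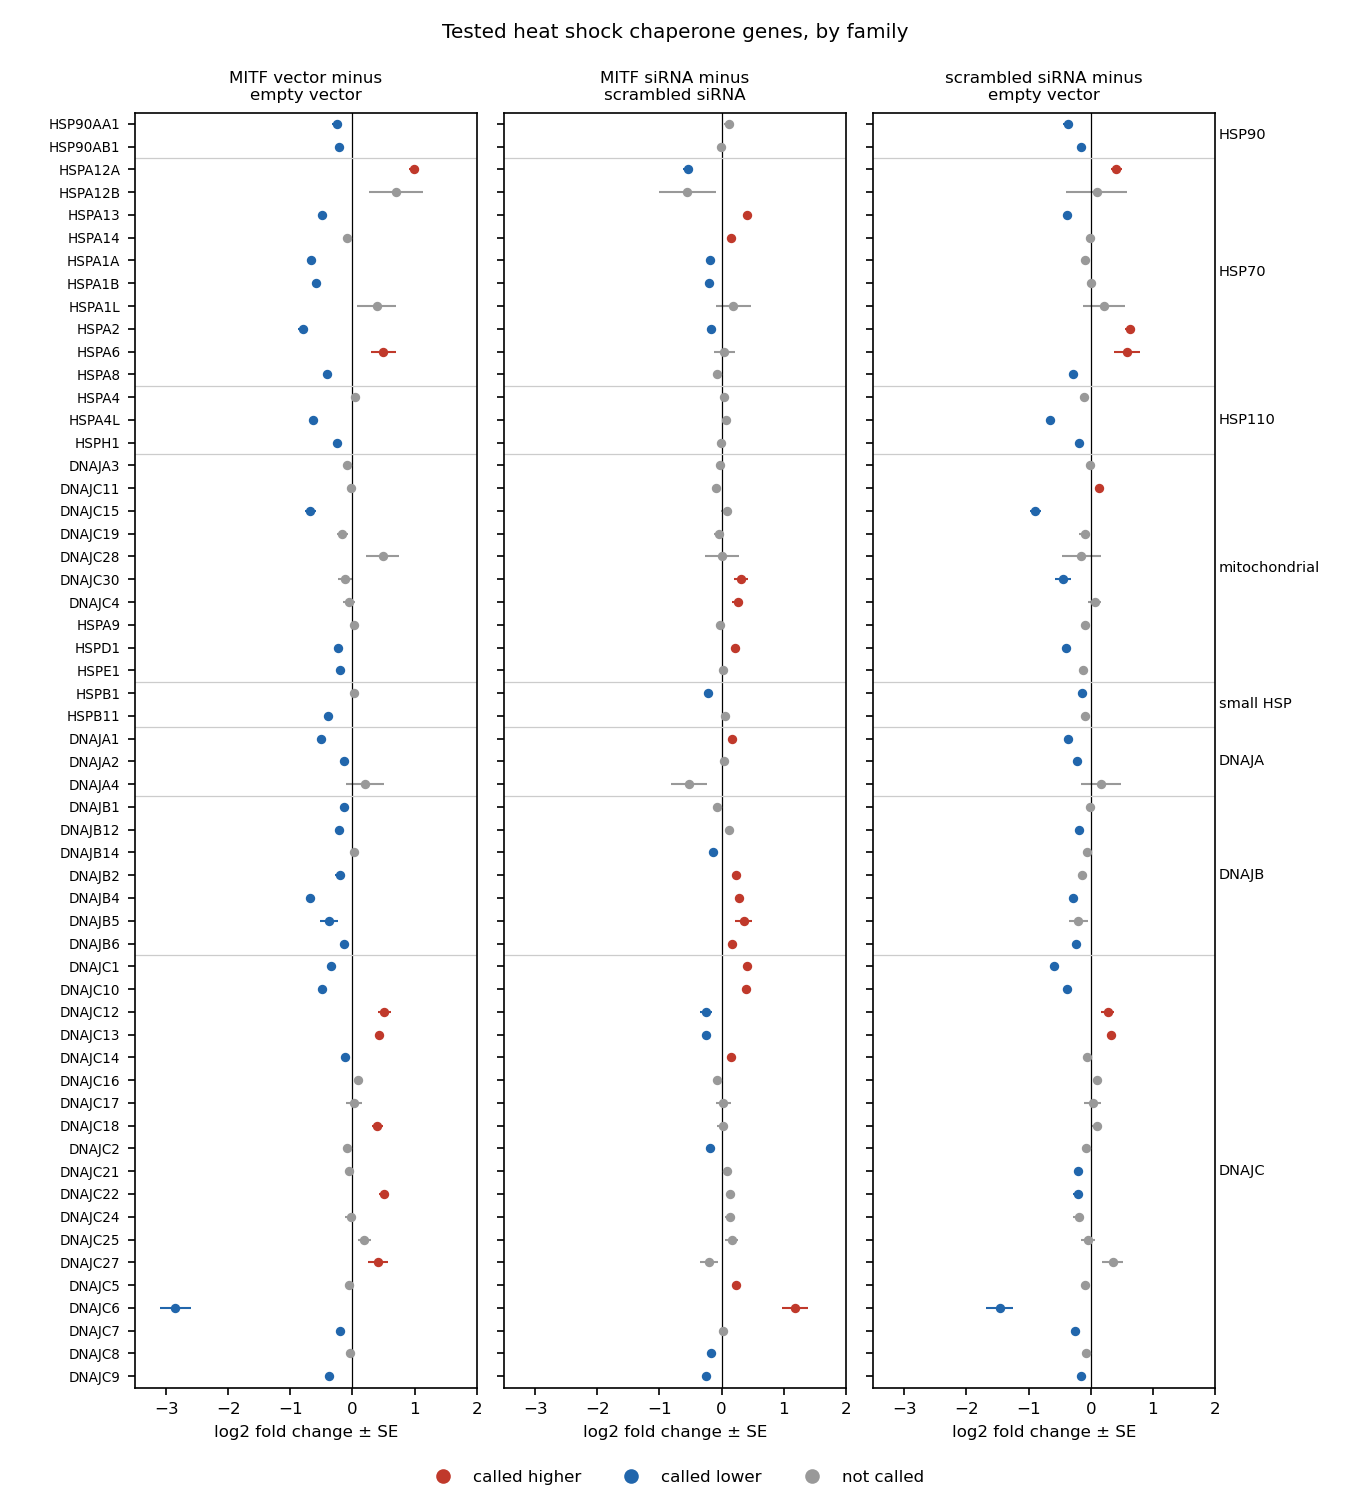
Log2 fold change ± SE (horizontal axis) of the 56 tested members, 1 gene a line and ordered by family, in 3 comparisons; red points were called higher, blue lower and grey not called. Blue points prevail in the MITF vector and control panels (27 and 22), whereas the MITF siRNA panel holds 15 red and 11 blue points.

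The MITF vector and MITF siRNA comparisons share no library. Both called 18 of the 56 members (32.1%, beside 24.7% of all tested genes). In 14 of these 18 (25.0% of tested members, beside 17.8% of all tested genes) the directions were opposite. Opposite directions were also the more common among all 3529 genes called in both, at 2538. HSPA12A, DNAJC12 and DNAJC13 were higher with the vector and lower with siRNA. DNAJA1, DNAJB2, DNAJB4, DNAJB5, DNAJB6, DNAJC1, DNAJC6, DNAJC10, DNAJC14, HSPA13 and HSPD1 were lower with the vector and higher with siRNA. Both calls held under every setting for 8 of the 14, namely HSPA12A, DNAJC13, DNAJC6, DNAJC10, DNAJC1, HSPA13, DNAJB4 and HSPD1. The other 4, HSPA1A, HSPA1B, HSPA2 and DNAJC9, had calls in the same direction, a share of 7.14% beside 6.93% of all tested genes. All 4 were lower in both comparisons, as were 3.96% of all tested genes, and no member was higher in both, beside 2.97%. Both calls held under every setting for DNAJC9 only. A further 16 members were called with the vector only (28.6%, beside 34.7% of all tested genes). With siRNA only 8 were called (14.3%, beside 10.7%), and 14 with neither (25%, beside 29.9%).

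**Figure D2:**
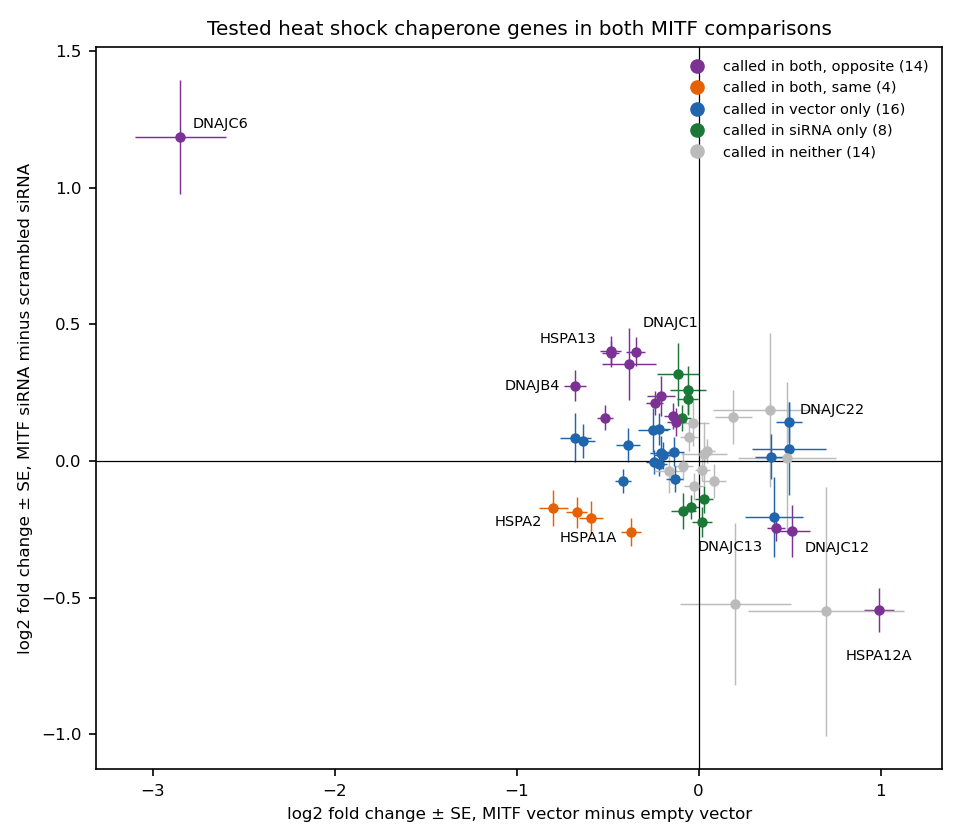
Each tested member's log2 fold change ± SE with the MITF vector (horizontal axis) against that with MITF siRNA (vertical axis), coloured by the calls. DNAJC6 at -2.85 and 1.19 and HSPA12A at 0.99 and -0.55 lie farthest from the centre in opposite quadrants, and HSPA2 and HSPA1A lie below 0 on both axes.

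Both HSP90 genes, whose products complete the folding of kinases and receptors, fell with the MITF vector and did not pass the test with siRNA. The stress-inducible HSP90AA1 was at 2670.2, 3267 and 2704 CPM with the empty vector and 2457, 2267 and 2539 CPM with the MITF vector. Its 3 MITF vector libraries lay below all empty vector libraries, and the fall was 1.19-fold (log2 fold change -0.25 ± 0.081 (SE), edgeR adjusted p = 0.0171). That call was lost without MITF vector replicate 2. HSP90AA1 was also lower than the empty vector with scrambled siRNA, at 2233, 2393 and 2098 CPM (log2 fold change -0.36 ± 0.081 (SE), edgeR adjusted p = 0.00314), where its libraries overlapped those of the MITF vector. It was at 2237, 2585 and 2447 CPM with MITF siRNA, where the libraries overlapped those of the scrambled control (log2 fold change 0.11 ± 0.081 (SE), edgeR adjusted p = 0.316). The constitutive HSP90AB1 varied less between replicates. It was at 1971, 1969 and 1994 CPM with the empty vector and 1739, 1616 and 1753 CPM with the MITF vector, without overlap, a 1.16-fold fall (log2 fold change -0.22 ± 0.045 (SE), edgeR adjusted p = 9.29e-05). With scrambled siRNA it was at 1767, 1775 and 1805 CPM and with MITF siRNA at 1757, 1845 and 1702 CPM, which overlapped (log2 fold change -0.012 ± 0.045 (SE), edgeR adjusted p = 0.87).

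Among the 11 HSP70 genes of the cytosol and related forms, 10 were tested, of which 5 fell and 2 rose with the MITF vector, beside 30.8% and 28.6% of all tested genes, and 4 fell and 2 rose with siRNA, beside 16.7% and 18.7%. HSPA8, the constitutive HSC70 that also removes clathrin coats and delivers proteins to lysosomes, carried most of the family's RNA. It was at 4088, 4090.2 and 4191 CPM with the empty vector and 3103, 2956 and 3221 CPM with the MITF vector, a fall of 1.33-fold with no overlap (log2 fold change -0.41 ± 0.045 (SE), edgeR adjusted p = 6.79e-10). HSPA8 was intermediate with scrambled siRNA, at 3347, 3392 and 3448 CPM, and at 3149, 3316 and 3224 CPM with MITF siRNA, all 3 below the scrambled libraries but with no call (log2 fold change -0.072 ± 0.044 (SE), edgeR adjusted p = 0.215). The scrambled libraries lay below the empty vector libraries (log2 fold change -0.28 ± 0.044 (SE), edgeR adjusted p = 4.42e-06).

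The stress-inducible pair HSPA1A and HSPA1B, classic heat shock genes, is near-identical in sequence, so that how reads were split between them is uncertain. HSPA1A was at 71.8, 73.4 and 71.9 CPM with the empty vector and 48.9, 42.7 and 44.3 CPM with the MITF vector, and HSPA1B at 55.7, 56.6 and 55.8 and 36.7, 38.7 and 36.0 CPM. Both fell without overlap, HSPA1A by 1.59-fold (log2 fold change -0.67 ± 0.060 (SE), edgeR adjusted p = 9.46e-12) and HSPA1B by 1.51-fold (log2 fold change -0.59 ± 0.066 (SE), edgeR adjusted p = 1.76e-09). In the controls, HSPA1A was at 63.6, 68.7 and 71.7 CPM and HSPA1B at 50.7, 55.1 and 62.6 CPM with scrambled siRNA, and neither was called against the empty vector (edgeR adjusted p = 0.261 and 0.97). With MITF siRNA, HSPA1A was at 62.5, 59.7 and 57.1 CPM and HSPA1B at 49.7, 50.3 and 46.0 CPM, lower than scrambled siRNA in the mean (log2 fold change -0.19 ± 0.057 (SE), edgeR adjusted p = 0.00927; HSPA1B log2 fold change -0.21 ± 0.062 (SE), edgeR adjusted p = 0.00792), and both of these calls were lost without scrambled siRNA replicate 3. Summed as 1 gene, the pair was at 128, 129.9 and 128 CPM in the empty vector group, 85.7, 81.4 and 80.3 in the MITF vector group, 114, 124 and 134 in the scrambled group and 112, 110.0 and 103 in the MITF siRNA group. The sum fell with the vector (log2 fold change -0.64 ± 0.053 (SE), edgeR adjusted p = 1.92e-12) and, by less, with siRNA (log2 fold change -0.20 ± 0.051 (SE), edgeR adjusted p = 0.00283), and the 2 falls differed from each other (log2 fold change -0.44 ± 0.074 (SE), edgeR adjusted p = 4.99e-06).

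HSPA2, an HSP70 best known from the testis, had the largest rise of any member from the empty vector to the scrambled siRNA control. It was at 25.3, 23.3 and 21.7 CPM with the empty vector and 13.2, 14.2 and 13.3 CPM with the MITF vector, and at 38.0, 36.6 and 35.4 CPM with scrambled siRNA and 31.0, 32.9 and 33.7 CPM with MITF siRNA. No 2 of the 4 groups overlapped. The fall with the vector was 1.74-fold (log2 fold change -0.80 ± 0.082 (SE), edgeR adjusted p = 2.48e-10) and the rise from empty vector to scrambled siRNA 1.55-fold (log2 fold change 0.63 ± 0.075 (SE), edgeR adjusted p = 1.9e-08). The small fall with MITF siRNA (log2 fold change -0.17 ± 0.066 (SE), edgeR adjusted p = 0.0418) was lost with DESeq2, with no filter on low counts, with the replicate block and without MITF siRNA replicate 1 or scrambled siRNA replicate 1 or 2. HSPA6, a strictly inducible HSP70, stayed at 2.00, 2.20 and 3.13 CPM with the empty vector and 3.15, 3.43 and 3.70 CPM with the MITF vector, low in every library. Its rise with the vector (log2 fold change 0.50 ± 0.20 (SE), edgeR adjusted p = 0.0334) was lost with DESeq2 and without empty vector replicate 1 or 2 or MITF vector replicate 2 or 3. HSPA14, a ribosome-associated HSP70, rose with MITF siRNA (log2 fold change 0.16 ± 0.049 (SE), edgeR adjusted p = 0.011), a call lost without MITF siRNA replicate 2 or scrambled siRNA replicate 2.

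HSPA12A, a distant HSP70 relative, had the largest rise with the MITF vector. It was at 22.4, 17.8 and 23.9 CPM with the empty vector and 42.0, 45.7 and 41.2 CPM with the MITF vector, every one of the latter above every one of the former, a 1.99-fold rise (log2 fold change 0.99 ± 0.082 (SE), edgeR adjusted p = 1.29e-12). With scrambled siRNA it was at 28.3, 31.3 and 26.8 CPM and with MITF siRNA at 19.2, 18.9 and 20.9 CPM, again without overlap, a 1.46-fold fall (log2 fold change -0.55 ± 0.081 (SE), edgeR adjusted p = 1.68e-06). The test of the difference between the 2 responses gave 1.54 ± 0.11 (SE) on the log2 scale (edgeR adjusted p = 1.39e-13). HSPA13, an HSP70-like ATPase of the microsomes, went the opposite way: it was at 95.5, 98.5 and 107 CPM in the empty vector group, 76.3, 69.6 and 68.5 in the MITF vector group, 79.4, 75.8 and 75.8 in the scrambled group and 99.1, 111 and 95.3 in the MITF siRNA group. It fell with the vector (log2 fold change -0.48 ± 0.058 (SE), edgeR adjusted p = 1.07e-08) and rose with siRNA (log2 fold change 0.40 ± 0.057 (SE), edgeR adjusted p = 8.72e-07), with no overlap in either comparison, and the MITF siRNA libraries overlapped those of the empty vector. HSPA1L and HSPA12B, both under 3 CPM, were not called in any comparison, and HSPA7, listed by RefSeq as a transcribed pseudogene, had too few counts to test.

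**Figure D3:**
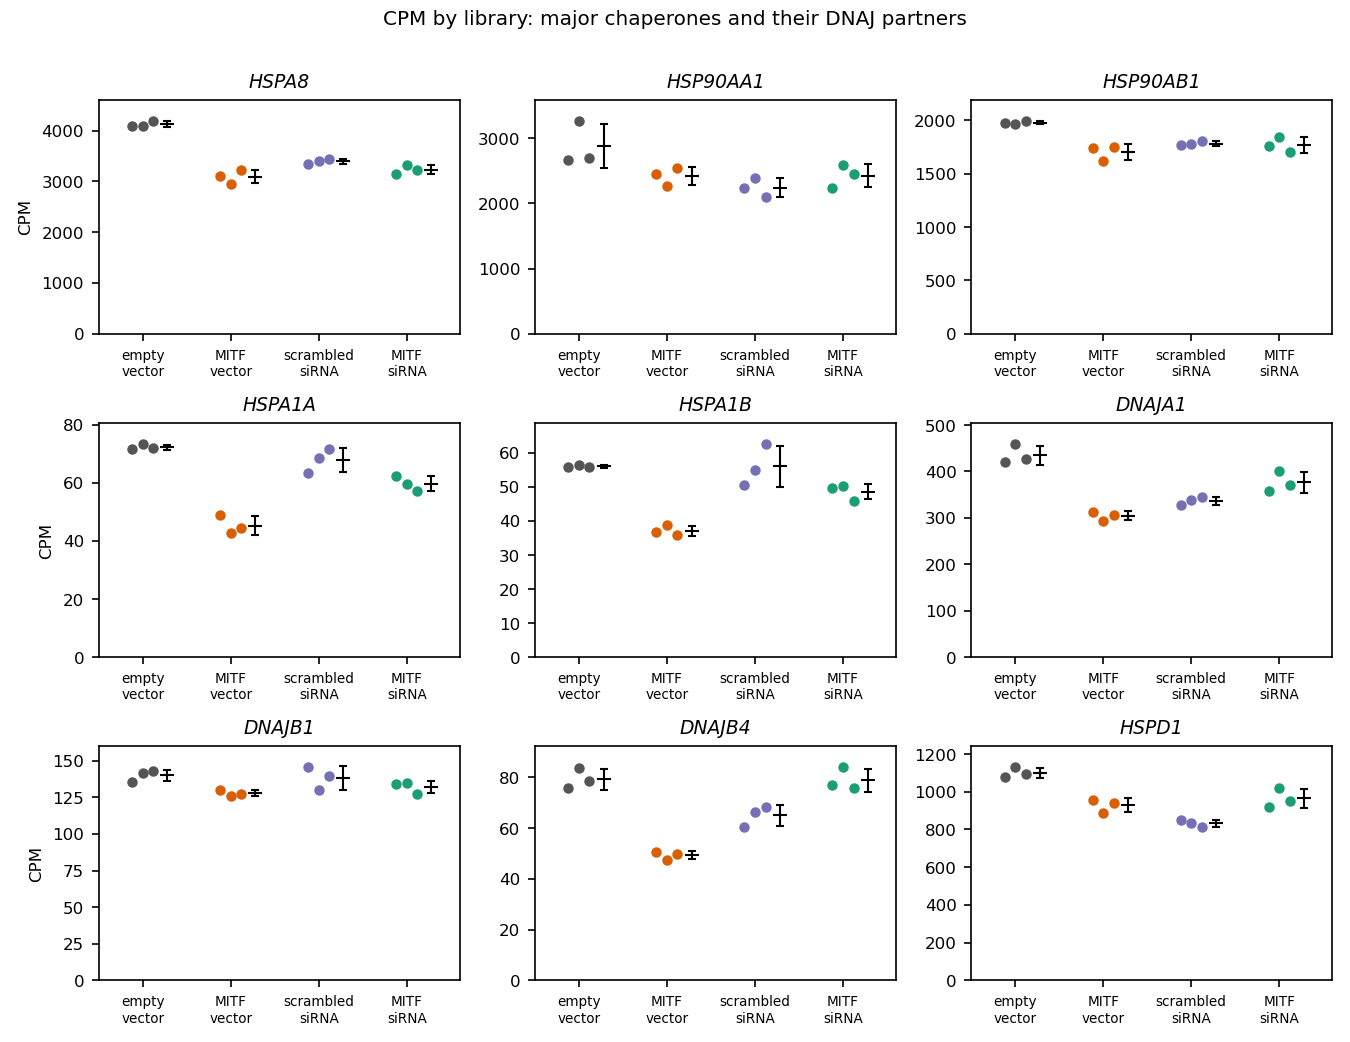
CPM of 9 major chaperones and J-domain partners by library (vertical axes from 0); points are single libraries of the 4 groups and black bars give mean ± SD. The MITF vector libraries of HSPA8, HSPA1A, HSPA1B, DNAJA1 and DNAJB4 lie below all empty vector libraries. The same holds for HSP90AA1, HSP90AB1, HSPD1 and DNAJB1. The empty vector libraries of HSPA8, HSP90AA1, HSP90AB1, HSPD1 and DNAJA1 lie above all 9 others, as do, narrowly, those of HSPA1A.

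The HSP110 genes encode nucleotide exchange factors that release ADP from HSP70. HSPH1, the heat-inducible form, was at 536, 572 and 563 CPM with the empty vector and 479, 444 and 486 CPM with the MITF vector, a fall without overlap (log2 fold change -0.25 ± 0.044 (SE), edgeR adjusted p = 1.03e-05). It was at 483, 491 and 495 CPM with scrambled siRNA and 476, 508 and 483 CPM with MITF siRNA, which overlapped (log2 fold change -0.0028 ± 0.043 (SE), edgeR adjusted p = 0.971). HSPA4, by contrast, was not called: at 417, 450.3 and 416 CPM with the empty vector and 447, 433 and 443 CPM with the MITF vector, its libraries overlapped (log2 fold change 0.045 ± 0.043 (SE), edgeR adjusted p = 0.384). It was at 402, 401 and 389.7 and 393, 429 and 402 CPM with scrambled and MITF siRNA (log2 fold change 0.037 ± 0.043 (SE), edgeR adjusted p = 0.538). HSPA4L was set apart by the empty vector group alone, at 49.2, 55.0 and 50.4 CPM there, 33.7, 32.6 and 32.7 in the MITF vector group, 32.2, 33.2 and 32.6 in the scrambled group and 34.0, 36.1 and 33.1 in the MITF siRNA group. Against the empty vector it was lower with the MITF vector (log2 fold change -0.63 ± 0.062 (SE), edgeR adjusted p = 7.3e-11) and with scrambled siRNA (log2 fold change -0.65 ± 0.064 (SE), edgeR adjusted p = 4.02e-10), and MITF siRNA was not called against scrambled (log2 fold change 0.074 ± 0.062 (SE), edgeR adjusted p = 0.383).

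J-domain proteins of the A and B classes carry clients to HSP70. DNAJA1, the main farnesylated partner of HSPA8, was at 420.1, 459 and 427 CPM with the empty vector and 312, 294 and 307 CPM with the MITF vector. It was at 328, 339 and 344 CPM with scrambled siRNA and 357, 402 and 370.0 CPM with MITF siRNA. No 2 groups overlapped, and the group means ran in the inverse order to those of MITF. The fall with the vector was 1.43-fold (log2 fold change -0.51 ± 0.046 (SE), edgeR adjusted p = 7.79e-12), and the rise with siRNA was smaller (log2 fold change 0.16 ± 0.045 (SE), edgeR adjusted p = 0.00567) and was lost without MITF siRNA replicate 2. DNAJA2 fell slightly with the vector (log2 fold change -0.13 ± 0.054 (SE), edgeR adjusted p = 0.0298), a call lost with DESeq2 and without empty vector replicate 2 or MITF vector replicate 2 or 3, and the sparsely expressed DNAJA4 was not called in any comparison.

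DNAJB1, the canonical heat-inducible HSP40, changed little. It was at 136, 141 and 143 CPM with the empty vector and 129.8, 126 and 127 CPM with the MITF vector, a small fall (log2 fold change -0.13 ± 0.048 (SE), edgeR adjusted p = 0.0185) that was lost without empty vector replicate 3 or MITF vector replicate 2. It was at 145, 129.7 and 139.6 and 134, 135 and 127 CPM with scrambled and MITF siRNA, not called (log2 fold change -0.067 ± 0.047 (SE), edgeR adjusted p = 0.284). DNAJB4 changed more, from 75.7, 83.7 and 78.4 CPM with the empty vector to 50.6, 47.5 and 49.6 CPM with the MITF vector, 1.601-fold lower (log2 fold change -0.68 ± 0.059 (SE), edgeR adjusted p = 4.43e-12). With scrambled siRNA it was at 60.2, 66.3 and 68.5 CPM and with MITF siRNA at 76.8, 83.9 and 75.7 CPM, 1.21-fold higher (log2 fold change 0.28 ± 0.056 (SE), edgeR adjusted p = 0.000185). The groups compared did not overlap in either case, and the MITF siRNA and empty vector libraries lay together. DNAJB6, which holds back the aggregation of glutamine-rich proteins, was at 108, 117 and 111 CPM in the empty vector group, 104, 97.9 and 102 in the MITF vector group, 96.0, 98.4 and 90.5 in the scrambled group and 107, 109 and 103 in the MITF siRNA group. It was called lower with the vector (log2 fold change -0.14 ± 0.049 (SE), edgeR adjusted p = 0.0146) and higher with siRNA (log2 fold change 0.16 ± 0.048 (SE), edgeR adjusted p = 0.00732), both by small amounts. The vector call was lost without empty vector replicate 2 or MITF vector replicate 2, and the siRNA call without scrambled siRNA replicate 3. Of the 7 tested DNAJB genes 6 fell and none rose with the vector, beside 30.8% and 28.6% of all tested genes, and 4 rose and 1 fell with siRNA, beside 18.7% and 16.7%. DNAJB2 and DNAJB5 were called in both comparisons in opposite directions, but each call was lost on leaving out at least 1 library, and an antisense gene to DNAJB5 is in the table. DNAJB14, of the endoplasmic reticulum membrane, fell with siRNA (log2 fold change -0.14 ± 0.048 (SE), edgeR adjusted p = 0.0225), a call lost without MITF siRNA replicate 2 or scrambled siRNA replicate 1 or 2.

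Of the 10 mitochondrial members, all tested, 3 fell and none rose with the MITF vector, beside 30.8% of all tested genes called lower and 28.6% higher. With MITF siRNA 3 rose and none fell, beside 18.7% and 16.7% of all tested genes. HSPD1, the HSP60 chamber of the matrix, was at 1077, 1129 and 1092 CPM with the empty vector and 959, 889 and 943 CPM with the MITF vector, without overlap (log2 fold change -0.24 ± 0.045 (SE), edgeR adjusted p = 2.36e-05). With scrambled siRNA it was at 849.8, 835 and 815 CPM, below all MITF vector libraries (log2 fold change -0.40 ± 0.045 (SE), edgeR adjusted p = 8.19e-09 against the empty vector), and MITF siRNA libraries lay above these at 920.1, 1022 and 953 CPM (log2 fold change 0.21 ± 0.045 (SE), edgeR adjusted p = 0.000329). Its lid HSPE1, encoded next to it, was at 101, 82.6 and 98.9 CPM with the empty vector and 85.1, 79.7 and 82.5 CPM with the MITF vector, which overlapped through empty vector replicate 2, and the fall (log2 fold change -0.20 ± 0.062 (SE), edgeR adjusted p = 0.00582) was lost without empty vector replicate 1. HSPE1 was at 89.5, 80.8 and 90.2 and 84.8, 94.0 and 87.1 CPM with scrambled and MITF siRNA, not called (log2 fold change 0.030 ± 0.061 (SE), edgeR adjusted p = 0.746). HSPA9, the mitochondrial HSP70 that pulls proteins through the inner membrane, was at 632, 635 and 648 CPM with the empty vector and 654, 634 and 653 CPM with the MITF vector, overlapping (log2 fold change 0.020 ± 0.041 (SE), edgeR adjusted p = 0.694). It was at 602, 592 and 599 CPM with scrambled siRNA and 576, 607 and 572 CPM with MITF siRNA (log2 fold change -0.031 ± 0.041 (SE), edgeR adjusted p = 0.592), so that mitochondrial HSP70 was not called in a comparison in which cytosolic HSPA8 fell by 1.33-fold. DNAJC15, a J protein of the inner membrane, repeated the pattern of HSPA4L: it was at 22.3, 21.9 and 20.6 CPM in the empty vector group, 13.6, 13.7 and 13.3 in the MITF vector group, 11.4, 11.5 and 11.99 in the scrambled group and 12.6, 12.3 and 12.1 in the MITF siRNA group. It was lower than the empty vector with the MITF vector (log2 fold change -0.68 ± 0.085 (SE), edgeR adjusted p = 1.86e-08) and with scrambled siRNA (log2 fold change -0.89 ± 0.091 (SE), edgeR adjusted p = 6.96e-10). DNAJC4 and DNAJC30 rose with siRNA (0.26 and 0.32 on the log2 scale), calls that were lost with DESeq2. The DNAJC4 call was also lost without MITF siRNA replicate 1 or 3 or scrambled siRNA replicate 1 or 2. The DNAJC30 call was also lost without MITF siRNA replicate 2 or 3 or scrambled siRNA replicate 2 or 3.

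Of the 8 HSPB members, named for the small heat shock proteins, HSPB1 and HSPB11 alone had enough counts to test. HSPB1, or HSP27, was at 102, 112 and 117 CPM with the empty vector and 109.9, 116 and 109.9 CPM with the MITF vector, overlapping (log2 fold change 0.020 ± 0.054 (SE), edgeR adjusted p = 0.771). It was at 108, 94.5 and 97.2 CPM with scrambled siRNA and lower with MITF siRNA, at 83.9, 86.9 and 85.4 CPM, without overlap (log2 fold change -0.22 ± 0.053 (SE), edgeR adjusted p = 0.00122). HSPB8, partner of BAG3 in selective autophagy, had 0 counts in all 12 libraries. Counting error alone (3 counts) would leave room for 0.404 CPM at the lowest depth and 0.125 CPM at the highest. CRYAB, the related αB-crystallin and no member by symbol, was under 1 CPM in each library. HSPB11, named in the family but working in cilia, fell with the vector (log2 fold change -0.39 ± 0.067 (SE), edgeR adjusted p = 6.25e-06) and was not called with siRNA. The other 6 HSPB members had too few counts to test.

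The DNAJC class is the most varied, its members tying HSP70 to single tasks, and 5 of its 19 tested members outside mitochondria rose and 6 fell with the MITF vector, shares of 26.3% and 31.6% that lay near the 28.6% and 30.8% of all tested genes. With siRNA 5 rose and 5 fell, 26.3% each, beside 18.7% and 16.7% of all tested genes. DNAJC6, or auxilin, which recruits HSPA8 to strip clathrin from vesicles, gave the largest fold change of any member. It was at 4.20, 5.23 and 4.85 CPM with the empty vector and 0.593, 0.931 and 0.330 CPM with the MITF vector, 7.20-fold lower (log2 fold change -2.85 ± 0.25 (SE), edgeR adjusted p = 5.18e-12). With scrambled siRNA it was at 1.68, 1.76 and 1.62 CPM and with MITF siRNA at 3.97, 4.09 and 3.55 CPM, 2.28-fold higher (log2 fold change 1.19 ± 0.21 (SE), edgeR adjusted p = 2.62e-05). All 4 groups were separate, in the inverse order to MITF, though the gene rested on 37 counts over the MITF vector group. DNAJC10, or ERdj5, which reduces disulfide bonds of misfolded proteins in the endoplasmic reticulum, was at 253, 264 and 258 CPM with the empty vector and 187, 184 and 184 CPM with the MITF vector (log2 fold change -0.48 ± 0.045 (SE), edgeR adjusted p = 2.05e-11). It was at 197, 199 and 198 CPM with scrambled siRNA and 258, 279 and 246 CPM with MITF siRNA (log2 fold change 0.40 ± 0.044 (SE), edgeR adjusted p = 7.15e-09), and the MITF siRNA libraries overlapped those of the empty vector. DNAJC1, also a J protein of the endoplasmic reticulum, was at 88.6, 85.2 and 80.5 CPM in the empty vector group, 68.9, 64.8 and 67.0 in the MITF vector group, 57.0, 58.0 and 53.8 in the scrambled group and 73.1, 75.4 and 74.4 in the MITF siRNA group, and no groups overlapped. It fell with the vector (log2 fold change -0.34 ± 0.052 (SE), edgeR adjusted p = 7.92e-07) and rose with siRNA (log2 fold change 0.40 ± 0.052 (SE), edgeR adjusted p = 1.82e-07), and its lowest group was the scrambled control (log2 fold change -0.59 ± 0.055 (SE), edgeR adjusted p = 8.44e-11 against the empty vector).

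DNAJC13 (RME-8), which works with HSPA8 on endosomes, was at 138, 149 and 133 CPM with the empty vector and 188, 185 and 191 CPM with the MITF vector, 1.34-fold higher (log2 fold change 0.43 ± 0.049 (SE), edgeR adjusted p = 2.42e-09). It was at 182, 172 and 171 CPM with scrambled siRNA and 140.3, 148 and 156 CPM with MITF siRNA, 1.18-fold lower (log2 fold change -0.24 ± 0.047 (SE), edgeR adjusted p = 0.000102). Neither comparison overlapped, and the group means ran in the order of MITF. DNAJC12, a partner of the enzymes that hydroxylate aromatic amino acids, was at 11.6, 14.6 and 13.0 CPM with the empty vector and 19.2, 18.9 and 16.6 CPM with the MITF vector (log2 fold change 0.51 ± 0.10 (SE), edgeR adjusted p = 3.58e-05). With scrambled siRNA it was at 16.8, 14.9 and 14.9 CPM and with MITF siRNA at 12.3, 13.6 and 13.1 CPM (log2 fold change -0.26 ± 0.094 (SE), edgeR adjusted p = 0.0326), and this second call was lost with DESeq2 and without MITF siRNA replicate 1 or 3 or scrambled siRNA replicate 1. DNAJC9, a histone chaperone of dividing cells, was lower in both MITF comparisons. It was at 107, 102 and 107 CPM in the empty vector group, 84.2, 78.1 and 82.7 in the MITF vector group (log2 fold change -0.37 ± 0.052 (SE), edgeR adjusted p = 2e-07), 88.0, 95.5 and 101 in the scrambled group and 77.6, 79.8 and 80.6 in the MITF siRNA group (log2 fold change -0.26 ± 0.051 (SE), edgeR adjusted p = 0.00014). An antisense gene to DNAJC9 is in the table and strand handling of the counting is not given, so this row could hold reads of both. DNAJC5, the cysteine string protein of secretory vesicles, was at 128, 109 and 128 CPM with the empty vector and 113, 119 and 121 CPM with the MITF vector, overlapping (log2 fold change -0.060 ± 0.055 (SE), edgeR adjusted p = 0.358). It rose from 114, 112 and 121 CPM with scrambled siRNA to 144, 131 and 131 CPM with MITF siRNA (log2 fold change 0.23 ± 0.054 (SE), edgeR adjusted p = 0.00121). DNAJC22 and DNAJC18 rose with the vector (0.50 and 0.40 on the log2 scale) and were not called with siRNA. DNAJC27, with an antisense gene in the table, rose with the vector (0.41). That call was lost with DESeq2 and without empty vector replicate 2 or 3 or MITF vector replicate 2 or 3.

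**Figure D4:**
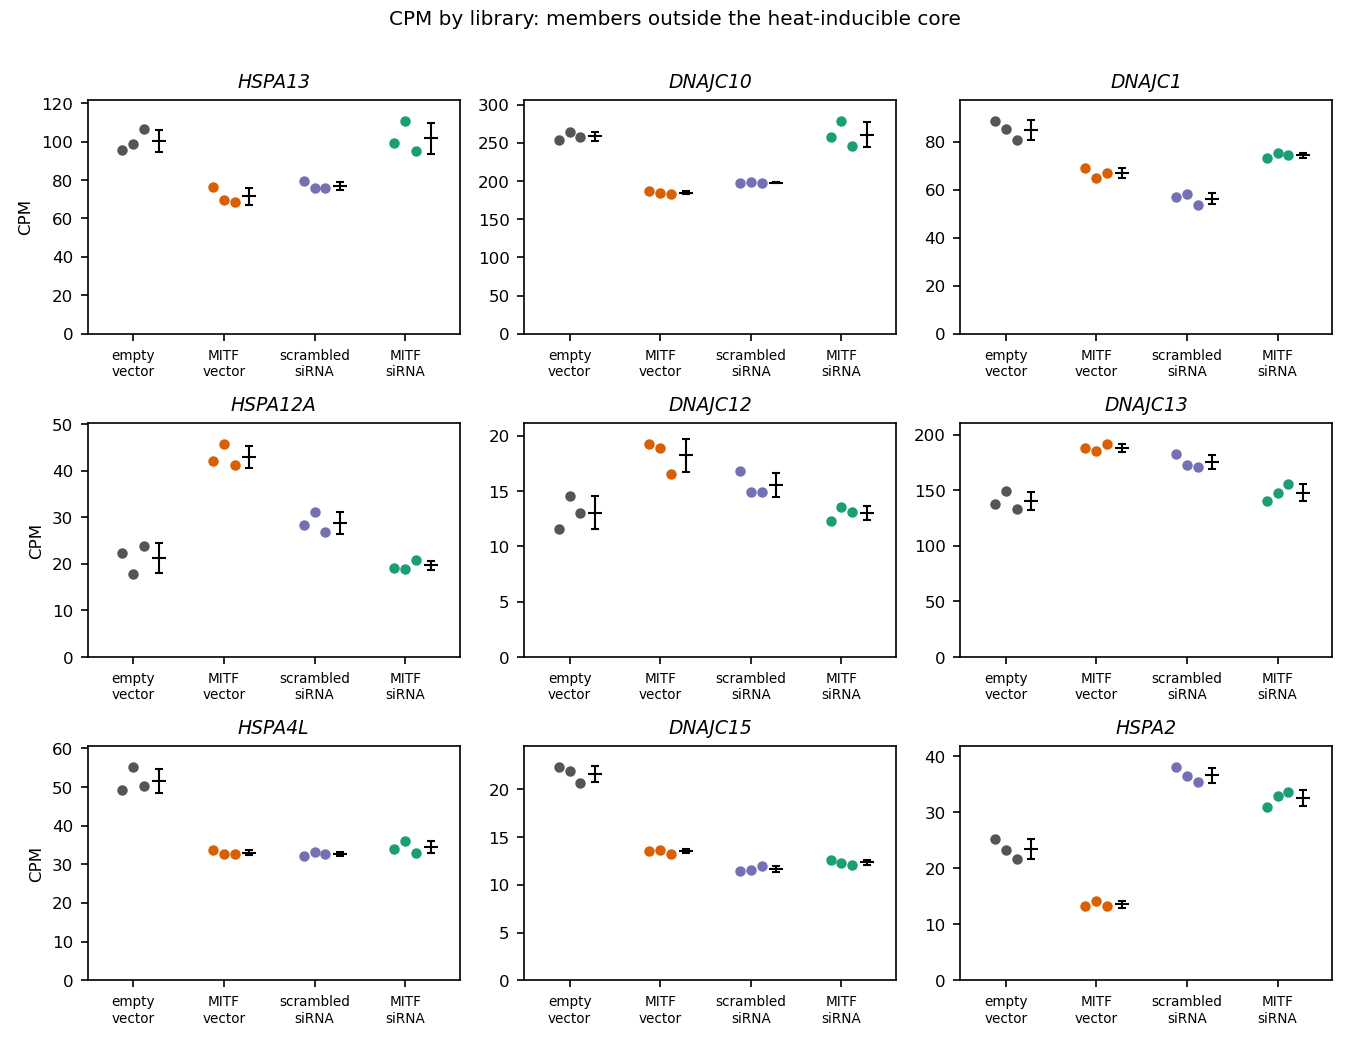
CPM of 9 members outside the heat-inducible core by library (vertical axes from 0); points are single libraries of the 4 groups and black bars give mean ± SD. HSPA13, DNAJC10 and DNAJC1 are lower with the MITF vector and higher with MITF siRNA than their controls, HSPA12A and DNAJC13 the reverse, and HSPA4L and DNAJC15 are high in the empty vector libraries only.

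The order of the 4 group means of MITF was empty vector, MITF siRNA, scrambled siRNA and MITF vector from low to high. DNAJC13 and DNAJC27 had the same order (3.57% of tested members, beside 9.69% of all tested genes), and DNAJA1, DNAJB4, DNAJB12, DNAJC6, HSPB11 and HSPE1 the inverse one (10.7%, beside 8.14%). This likeness was chosen after the values were seen and has no test. In DNAJA1 and DNAJC6 the libraries of the 4 groups were also all separate.

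Genes that work with these chaperones were read from 5 further lists. Of the heat shock factors, HSF1, the main activator of the heat response, was at 83.3, 80.1 and 87.3 CPM with the empty vector and 83.9, 86.0 and 85.5 CPM with the MITF vector and was not called in any comparison (0.025 with the vector and -0.010 with siRNA, log2 scale). HSF4, known for its role in the lens, rose from 21.5, 20.1 and 21.8 CPM with the empty vector to 67.9, 75.2 and 70.1 CPM with the MITF vector (log2 fold change 1.74 ± 0.11 (SE), edgeR adjusted p = 7.5e-10). It was at 39.9, 43.1 and 41.0 CPM with scrambled siRNA and 25.1, 21.1 and 31.1 CPM with MITF siRNA (log2 fold change -0.67 ± 0.10 (SE), edgeR adjusted p = 8.56e-05). No groups compared overlapped, in the order of MITF. HSF2 was higher in both comparisons (0.25 and 0.25), and HSBP1, which binds trimers of heat shock factors, fell with the vector (-0.18).

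Of the 28 cochaperones of HSP70 and HSP90, 15 fell (53.6%) and 3 rose (10.7%) with the MITF vector, beside 30.8% and 28.6% of all tested genes. With siRNA 7 rose (25%) and 4 fell (14.3%), near the 18.7% and 16.7% of all tested genes. Between the controls 12 (42.9%) were lower and 2 (7.14%) higher in scrambled siRNA libraries, beside 19.6% and 18.9% of all tested genes. The median log2 difference of the cochaperones was -0.099 between the controls and -0.129 with the MITF vector. AHSA1, which speeds the ATPase of HSP90, fell with the vector (log2 fold change -0.51 ± 0.048 (SE), edgeR adjusted p = 3.43e-11), as did PTGES3, or p23 (-0.46), STIP1, the HSP70 to HSP90 adaptor (-0.24), FKBP5, a glucocorticoid receptor cochaperone (-0.84), and BAG3 (-0.25). BAG3, an HSP70 exchange factor, also fell with siRNA (-0.21, edgeR adjusted p = 0.00556), as HSPA1A and HSPA1B did. SGTB rose with the vector (0.69). All 8 genes of TRiC, the cytosolic ring chaperone that folds actin and tubulin, fell with the vector, with a median of -0.35. With siRNA 5 of the 8 rose. In scrambled siRNA libraries 7 of the 8 were lower than in empty vector libraries, beside 19.6% of all tested genes. CCT5 was at 1013, 1037 and 1016 CPM with the empty vector and 738, 699.8 and 759.7 CPM with the MITF vector (log2 fold change -0.48 ± 0.044 (SE), edgeR adjusted p = 1.74e-11).

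The mitochondrial proteases and folding helpers were split, with 3 rises (25%) and 2 falls (16.7%) of 12 with the vector, beside 28.6% and 30.8% of all tested genes, and 4 rises and 4 falls (33.3% each) with siRNA, beside 18.7% and 16.7%. The unfoldase CLPX (0.41) and the inner membrane protease subunit AFG3L2 (0.36) rose with the vector, and GRPEL1, the exchange factor of HSPA9, fell (-0.41). TRAP1, the mitochondrial HSP90, was not called with the vector (log2 fold change -0.037 ± 0.046 (SE), edgeR adjusted p = 0.514) and rose with siRNA (log2 fold change 0.18 ± 0.045 (SE), edgeR adjusted p = 0.00182). Of 17 chaperones and folding enzymes of the endoplasmic reticulum, 14 fell and 1 rose with the vector, with a median of -0.50 on the log2 scale, beyond the -0.24 of the heat-inducible members, and 12 rose and 2 fell with siRNA. The called shares were 82.4% lower with the vector and 70.6% higher with siRNA, beside 30.8% and 18.7% of all tested genes. PDIA4 (-0.998), CALR (-0.73), HYOU1 (-0.73) and HSP90B1 (-0.64) fell with the vector, and all 4 rose with siRNA (0.42, 0.33, 0.25 and 0.27). The difference between the lists was not tested.

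The remaining 16 members could not be tested. HSPB8, DNAJB3, DNAJC25-GNG10 and HSPB2-C11orf52 had no count in any library, and the highest count of any of the others in 1 library was 15, for DNAJB7. The read-through rows HSPE1-MOB4, HSPB2-C11orf52 and DNAJC25-GNG10 share exons with HSPE1, HSPB2 and DNAJC25, and how such reads were assigned is not given.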

How the data were processed

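RNA of 12 A2058 libraries was prepared with a stranded total RNA kit and sequenced as paired-end reads, per the labels' protocols. The authors deposited 1 table of raw read counts, keyed by gene symbol, with whole numbers for each library; a second file with names and checksums of read files was not used. Per the submitters' processing notes, the tools were STAR 2.6.0, featureCounts 1.6.3, SAMtools 1.10 and bcl2fastq 2.18.0, and the build hg19. The sources used here do not give their settings, among them strand handling and shared reads. Near-identical, overlapping and antisense genes are therefore uncertain.

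Genes were kept by filterByExpr (minimum count 10), which left 14297, and libraries were scaled by TMM. All 12 libraries entered 1 fit of group means (edgeR 4.0.16 quasi-likelihood, robust, R 4.3.3), with Benjamini-Hochberg adjustment over all tested genes and calls at adjusted p below 0.05. The standard error is the size of the log2 fold change divided by the square root of F. The steps were tested on simulated data. CPM per kb divides CPM by the union of exons in GENCODE v29 basic. All 72 members matched a RefSeq gene, and 61 had a promoter entry.

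The alternatives were RLE scaling, no filter on low counts, DESeq2 1.42.0, the compared groups alone, a replicate block and leaving out each library. HSPA1A and HSPA1B were also summed, an alternative chosen after seeing the data. Replicate correlations of log2 CPM ran from 0.9905 to 0.9963, and no 2 libraries were identical. The members and gene lists were chosen from general knowledge with earlier results of these data known. Values in every library are given for a core of 16 members and for the called members with the smallest adjusted p (10 with the vector, 10 with siRNA, 5 between controls), and other members by family. Of the context lists up to 4 called genes each are named, with HSF1, HSF2, BAG3, STIP1, TRAP1 and CRYAB. 1 gene of the melanocytic marker list is not reported here and is left out of its sum.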

Additional observations from a re-analysis of the deposited data

How the results depend on the processing

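No called member reversed its direction under any alternative run, and the counts of called members stayed within 1.5 times except for 3 values. The rises with MITF siRNA numbered 15, and 9 without MITF siRNA replicate 2. The rises between the controls numbered 6, 3 with DESeq2 and 3 without empty vector replicate 1. Leaving out 1 library at a time gave 5 to 7 rises and 21 to 27 falls with the MITF vector, 9 to 15 rises and 8 to 11 falls with MITF siRNA, 3 to 6 rises and 18 to 23 falls between the controls, and 6 to 9 and 25 to 28 for the difference of responses; fewer libraries entered those fits. The replicate numbers do not pair the libraries: correlations of deviations between same-numbered libraries ran from -0.0430 to 0.0519. With the replicate block, 33, 25, 27 and 37 members were called in place of 34, 26, 28 and 36. RLE scaling moved the median of all genes by at most 0.0023 on the log2 scale and changed no member's call in any of the 4 tests. Members with low counts, such as HSPA12B and DNAJA4, had standard errors of 0.43 and 0.31 with the vector. A change of that size, and also a somewhat larger one, could not be called there.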
